A study of Homo sapiens with 16 samples.

Results

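Translocation t(8;21) acute myeloid leukaemia is driven by the fusion protein RUNX1/ETO, in which the DNA-binding Runt domain of RUNX1 is joined to nearly all of the corepressor ETO, the product of *RUNX1T1*. The fusion holds myeloid progenitors in an immature state, and leukaemic cells with it often carry CD34, the surface sialomucin used to mark haematopoietic stem and progenitor cells. Cell lines derived from such leukaemias keep the fusion but have their own surface phenotype, lineage genes and chromosomal gains and losses. Expression of the 6 bulk RNA-seq libraries with the highest *RUNX1T1* levels was compared here, 3 that expressed *CD34* (A, the CD34-expressing libraries) and 3 that did not (B, the CD34-silent libraries), out of 12 in vitro libraries and 16 in the whole series.

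The grouping came from measured values. A library was placed in A when its *CD34* level was above 50 CPM (counts on a gene relative to a fixed number of reads on all genes) and its *RUNX1T1* level above 200 CPM, and in B when *CD34* was below 50 CPM and *RUNX1T1* above 100 CPM. The in vitro libraries were labelled as Kasumi-1 or SKNO-1, which are both established t(8;21) lines. Cells had received lipid nanoparticles at 2 µg/ml for 24 h that carried either the modified control siRNA (LNP/siMM-mod, genotype label WT) or the modified siRNA against the fusion transcript (LNP/siRE-mod, genotype label RUNX1/ETO knockdown), and RNA was taken on day 3. Per the labels SKNO-1 cells were grown with GM-CSF and Kasumi-1 cells without it. Each line stands for 1 leukaemia, and the labels do not say whether libraries came from separate cultures.

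Groups A and B crossed these labels. A held Kasumi-1 LNP/siMM-mod replicate 1 and SKNO-1 LNP/siMM-mod replicates 1 and 2, and B held Kasumi-1 LNP/siMM-mod replicate 3, Kasumi-1 LNP/siRE-mod replicate 2 and SKNO-1 LNP/siRE-mod replicate 2. The 3 values given below for A and for B follow this order. Both groups therefore contained both cell line labels. B contained both siRNA labels but A only LNP/siMM-mod, so the siRNA label was not balanced between the groups. The 3 libraries labelled Kasumi-1 LNP/siMM-mod were divided between A, B and the libraries outside both. Libraries with the same line label correlated at Pearson's r of 0.775 to 0.792 across the 2 groups (4 pairs), and libraries with different line labels at 0.992 to 0.993 within A (2 pairs) and 0.978 to 0.985 within B (2 pairs). These coefficients were taken over log2 CPM of 12937 genes within pairs of libraries and are descriptions, since genes are not independent replicates. How the crossing arose was not tested, and all values below are given by measured group.

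The 2 genes of the rule had the following levels. *CD34* was at 398, 395 and 356 CPM in A and at 0.132, 0.117 and 0.124 CPM in B, where it had 13, 14 and 12 reads. *RUNX1T1* was at 281, 309 and 254 CPM in A and at 150, 174 and 165 CPM in B. The library nearest to A on the other side of its *RUNX1T1* limit was at 134 CPM with *CD34* at 125 CPM. The library nearest to B had *RUNX1T1* at 52.7 CPM and *CD34* at 0.687 CPM. Among the 6 libraries outside both groups, 3 had *CD34* at 121 to 130 CPM and 3 had it at 0.459 to 0.695 CPM, so no in vitro library lay near the *CD34* limit. These values chose the groups and are not a result. Reads on *RUNX1T1* include those from the ETO portion of the fusion transcript.

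The 12 in vitro libraries held 60559466 to 147990959 reads on genes, with a median of 89160101. In SKNO-1 LNP/siRE-mod replicate 2, a B library, 8.72% of all reads fell on 4 unnamed transcripts of chromosome 21 that lie on ribosomal DNA, against 0.00367 to 1.92% in the other 11. Counts over all genes and of the erythroid and megakaryocyte list are also given without this library. Counts of several other lists changed without it and are given below with it. For example, 9 and 8 transcription factors, 6 and 3 neutrophil granule genes and 4 and 10 cytokine receptors were then higher in A and in B. Of the 138 called genes named by the rule, 135 were called without it. Unless stated otherwise, levels below are CPM after TMM scaling of library sizes over the 6 libraries, and a log2 difference is the mean log2 CPM of A minus that of B, computed with a prior count of 2, which understates the difference of low genes. A gene was called higher in a group when its 3 levels there did not overlap the 3 of the other group and the 2 groups differed by at least 2-fold. No p-value is given for A against B because the groups were chosen on expression.

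Of 12937 autosomal genes with at least 600 reads over the 6 libraries, 3060 (23.7%) were called, 1266 (9.79%) higher in A and 1794 (13.9%) higher in B. Without overlap but at any size of difference there were 8100 genes (62.6%), so most genes had no overlap between the groups. At 4-fold or more, 442 genes were higher in A and 785 in B. At 16-fold or more, 204 were higher in A and 330 in B. The median log2 difference over all genes was 0.00094. The spread within the groups was small beside these differences, with a median SD across genes of 0.125 on the log2 scale in A and 0.188 in B. Without SKNO-1 LNP/siRE-mod replicate 2, 1251 genes were called higher in A and 1548 in B.

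**Figure D1:**
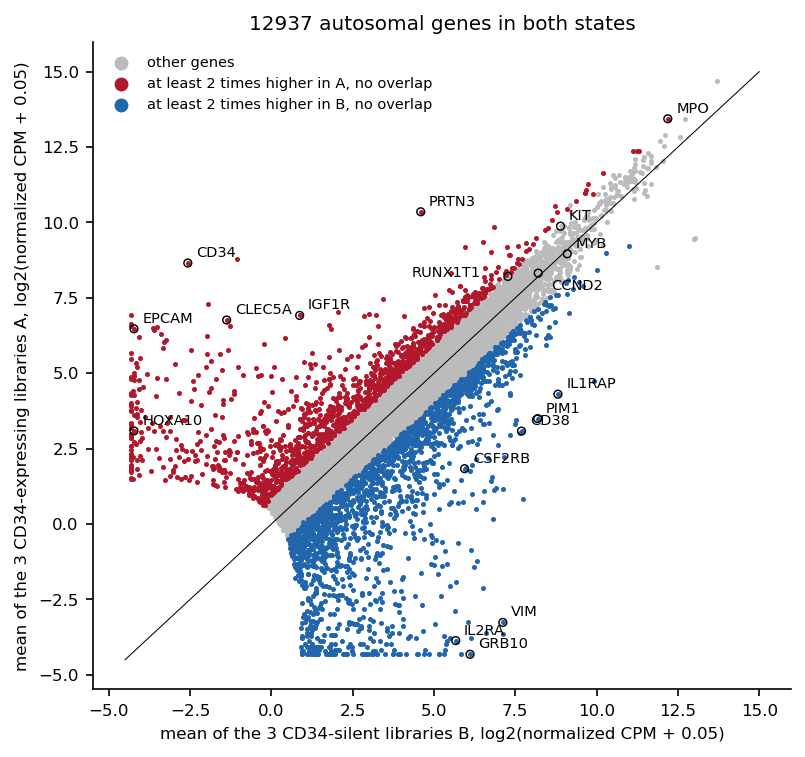
Mean log2(CPM + 0.05) of each of 12937 autosomal genes in the 3 CD34-expressing libraries (A, y axis) against the 3 CD34-silent libraries (B, x axis), with called genes coloured by direction. The 1266 genes called higher in A and the 1794 called higher in B include bands of genes at or near 0 reads in the opposite group.

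Many of the called genes were present in 1 group and close to silent in the other. With a mean of at least 5 CPM in 1 group and under 0.1 CPM in every library of the other, 78 genes were on in A only among these 6 libraries and 86 were on in B only. *FAR1*, which encodes a fatty acyl-CoA reductase of ether lipid synthesis, was at 115, 124 and 127 CPM in A and had 0 reads in B. Its level in A was at least 13568-fold that of B, where 0 is set to a floor of 3 reads over the group. *EPCAM*, an epithelial adhesion molecule, was at 84.6, 84.9 and 96.9 CPM in A, with 1 read in all of B. *CD109*, a GPI-anchored surface protein that binds transforming growth factor beta, was at 40.7, 47.2 and 43.7 CPM in A and at 0 in B, at least 4883-fold apart. This surface pair was picked among genes without overlap, and *CD34* set the groups. The lack of an intermediate library among the 6 is therefore no result.

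Folds are not given for genes with so few reads in 1 group that a single library set the ratio. *IGF2BP3*, which binds and stabilises mRNAs in embryonic and cancer cells, was at 88.9, 95.2 and 95.2 CPM in A against 0.0101, 0.0224 and 0.0793 CPM in B (12 reads). *LIN28B*, which blocks maturation of let-7 microRNAs, was at 36.6, 37.2 and 37.8 CPM in A and had 2 reads in all of B. *MYO18B*, an unconventional myosin, was at 53.7, 55.5 and 44 CPM in A and 0 in B, at least 5681-fold apart. The genes that follow were the reverse, high in the B libraries and close to 0 in A. *PIWIL3*, a germline PIWI protein, was at 139, 129 and 149 CPM in B against 0.0782, 0.0137 and 0 CPM in A (7 reads). *HORMAD1*, a meiotic chromosome axis protein, was at 89.6, 89.6 and 108 CPM in B and 0.0130, 0.0686 and 0.0139 CPM in A (7 reads).

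*VIM*, encoding the intermediate filament vimentin that most blood cells carry, was at 144, 123 and 148 CPM in B but at 0.0652, 0.0137 and 0.0833 CPM in A, where it had 12 reads in all (2566-fold). *DPP4*, the surface peptidase CD26, was at 69.97, 58.2 and 82.6 CPM in B and 0.0130, 0.0549 and 0 CPM in A (5 reads). Near-absence of vimentin mRNA was shared by the 3 A libraries. *SLFN11*, which acts on stalled replication forks, was at 32, 37.1 and 36.8 CPM in B and 0 in A, at least 2609-fold apart. *IL2RA*, the alpha chain of the interleukin-2 receptor (CD25), was at 54.6, 39.5 and 58.2 CPM in B and 0, 0 and 0.0555 CPM in A, where its 4 reads lay in 1 library.

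In the 6 libraries outside the rule, which had no part in choosing the genes, all 78 and all 86 of these genes differed in the same direction between the 3 libraries above and the 3 below the *CD34* limit. There 72 of the 78 and 66 of the 86 kept the on and off pattern at limits of 1 CPM and 0.1 CPM. These 6 libraries were themselves divided by their *CD34* level, so the counts describe how far the pattern extends and are no test.

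Promoter sequences are shown for 4 genes that carry the main surface and granule differences described here, chosen after their values were seen and with an entry in the RefSeq table used, *CD34* itself, the granule protease gene *PRTN3* and the receptor genes *IL5RA* and *IL2RA*. Each is the 250 bases before the annotated start in GRCh38.p14, read 5′ to 3′ on the strand of the gene, at chr1:207911126-207911375 (minus strand) for *CD34*, chr19:840749-840998 (plus strand) for *PRTN3*, chr3:3110375-3110624 (minus strand) for *IL5RA* and chr10:6062368-6062617 (minus strand) for *IL2RA*. The gene models of the deposited tables lie at chr1:207880972-207911402 for *CD34*, chr19:840999-848175 for *PRTN3*, chr3:3066326-3126613 for *IL5RA* and chr10:6010689-6062370 for *IL2RA*, so the windows of *CD34* and *IL5RA* lie inside longer models. Capitals mark the ETS core GGAAGT or its reverse complement ACTTCC.
CD34: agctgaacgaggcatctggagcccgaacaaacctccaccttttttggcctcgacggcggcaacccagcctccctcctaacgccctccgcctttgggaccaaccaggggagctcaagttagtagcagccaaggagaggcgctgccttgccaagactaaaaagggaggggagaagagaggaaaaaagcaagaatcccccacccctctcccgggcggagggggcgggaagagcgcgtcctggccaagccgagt
PRTN3: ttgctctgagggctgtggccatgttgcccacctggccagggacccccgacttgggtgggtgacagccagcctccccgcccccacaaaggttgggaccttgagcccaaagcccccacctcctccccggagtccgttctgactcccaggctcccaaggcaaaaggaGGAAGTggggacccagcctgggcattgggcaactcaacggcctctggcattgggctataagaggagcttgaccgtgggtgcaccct
IL5RA: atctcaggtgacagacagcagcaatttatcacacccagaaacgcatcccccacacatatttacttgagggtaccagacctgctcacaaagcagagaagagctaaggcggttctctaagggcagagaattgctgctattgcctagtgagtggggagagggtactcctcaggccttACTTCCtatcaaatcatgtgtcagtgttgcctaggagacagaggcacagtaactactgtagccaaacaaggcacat
IL2RA: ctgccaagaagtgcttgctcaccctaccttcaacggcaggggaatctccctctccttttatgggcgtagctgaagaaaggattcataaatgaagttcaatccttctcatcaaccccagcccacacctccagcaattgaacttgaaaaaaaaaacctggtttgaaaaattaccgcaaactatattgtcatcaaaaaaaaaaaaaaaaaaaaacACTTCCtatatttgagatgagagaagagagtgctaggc
The RUNX core TGTGGT, or ACCACA on the other strand, was in none of the 4 windows, and the ETS core was in 3 of them, the exception being *CD34*. The motifs do not overlap each other in letters. Over first listed promoters of the same length, the RUNX core was present in 7.70% of 9063 matched genes that passed the read filter, 8.61% of 859 genes higher in A and 8.96% of 1150 genes higher in B. The ETS core was in 24.6%, 18.3% and 20.9% of the same sets. A match is a string of letters and not a bound site, and binding was not measured in these libraries.

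The listed stem and progenitor genes that passed the read filter did not follow *CD34* as a group. The list was not restricted to genes of the most primitive cells. Of 43 listed genes 31 passed the read filter, and of the 30 other than *CD34*, 5 were called higher in A and 13 higher in B (60% called, against 23.7% of all genes), with a median log2 difference of −0.36 against 0.00094 over all genes. Counts over members that passed a filter on reads are a description of each list. Because these are bulk libraries, fewer cells of a type and less RNA per cell cannot be told apart. *CD38*, an ectoenzyme that the most primitive progenitors lack, was at 8.08, 8.61 and 8.55 CPM in A and 200.3, 209.6 and 209 CPM in B (24.5-fold higher in B, log2 −4.61 ± 0.036 SE). The A libraries were therefore high in *CD34* and low in *CD38* mRNA, and the B libraries the reverse. *CLEC12A*, a lectin receptor of myeloid progenitors and leukaemic cells, was at 2.10, 2.09 and 3.65 CPM in A and 113, 96.8 and 112 CPM in B (41-fold higher in B). *KIT*, the stem cell factor receptor, was at 941 ± 28.8 CPM in A and 474 ± 24.4 CPM in B (mean ± SD, n = 3 each), 1.98-fold apart and just short of the call.

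*DNMT3B*, a de novo DNA methyltransferase, was at 17.5, 17.9 and 19.9 CPM in A and 4.62, 5.11 and 4.38 CPM in B (3.92-fold higher in A). *ZBTB46*, a transcriptional repressor expressed in classical dendritic cells, was at 0.899, 0.631 and 0.736 CPM in A and 22.4, 23 and 16.3 CPM in B (27.2-fold higher in B). Both held in the libraries outside the rule, where log2 differences were 1.35 and −4.26. *CDK6*, which controls exit of stem cells from quiescence, was at 865, 927 and 857 CPM in A and 848, 1019 and 879 CPM in B, and *CD164*, another sialomucin, at 163, 159.6 and 182 CPM in A and 179.9, 165 and 167 CPM in B. The groups overlapped for both genes. *PROM1*, which encodes the stem cell marker CD133, had 0 reads in all 6 libraries. Other members below the filter went both ways. *HLF* had 253 reads in A and 34 in B, and *MMRN1* 191 and 64. *CRHBP* had 132 reads in A and 190 in B, and *AKR1C3* 0 and 83.

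The other genes typical of t(8;21) leukaemia, or named in the study as targets of the fusion, were divided. Of 24 listed, 20 passed the filter, and of the 19 other than *RUNX1T1*, 5 were called higher in A and 5 higher in B (52.6% called, against 23.7% of all genes). The list was assembled in part by the study on these samples and is not independent evidence of a direction. *LAPTM5*, a lysosomal membrane protein of blood cells, was at 41.2, 32.4 and 34.5 CPM in A and 148, 128 and 133 CPM in B (3.78-fold higher in B). *RPS6KA1*, a kinase downstream of ERK, was at 22.3, 21.6 and 23.9 CPM in A and 74.7, 75.9 and 64.1 CPM in B (3.17-fold higher in B). *PRAME*, a cancer-testis antigen common in this leukaemia, was at 3.17, 2.50 and 2.97 CPM in A and 113, 106 and 113 CPM in B (38.4-fold higher in B). These 3 genes were lower in A. So was *DEPTOR*, an inhibitor of mTOR, at 52.9, 50.2 and 50.1 CPM in A and 121, 124 and 121 CPM in B (2.39-fold). Comparing samples by siRNA, the study reports that fusion knockdown raised *LAPTM5* and *RPS6KA1* but lowered *DEPTOR*.

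*ANGPT1*, the ligand of the TIE2 receptor, was at 44.9, 50.5 and 54.4 CPM in A and 0.403, 0.0972 and 0.347 CPM in B (177-fold higher in A). *POU4F1*, a transcription factor characteristic of t(8;21) leukaemia, was at 8.96, 8.70 and 8.13 CPM in A and 0.745, 1.17 and 0.674 CPM in B (9.95-fold higher in A). *UBASH3B*, a tyrosine phosphatase that damps receptor signalling, was at 189, 193 and 188 CPM in A and 58.4, 65.3 and 68.7 CPM in B (2.96-fold higher in A). *BAALC*, expressed in progenitors and acute leukaemia, was at 17.6, 16.6 and 18.2 CPM in A and 6.94, 7.24 and 7.62 CPM in B (2.41-fold higher in A). The typical genes therefore ran in both directions. *TERT*, the telomerase reverse transcriptase, was not called at 7.60, 6.25 and 5.09 CPM in A and 10.2, 15.5 and 11 CPM in B, nor was *OGG1*, a DNA repair glycosylase, at 1.16, 1.07 and 1.08 CPM in A and 1.72, 1.76 and 2.41 CPM in B. *CCND2*, a D-type cyclin of the G1 phase, was at 309, 337 and 311 CPM in A and 273, 291 and 320.2 CPM in B, with overlap. *CEBPA*, the granulocytic transcription factor, was low in every library, at 2.95, 1.58 and 2.32 CPM in A and 2.54, 2.27 and 1.45 CPM in B.

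Among 56 passing transcription factors of haematopoiesis, 11 were higher in A and 8 higher in B (33.9% called, against 23.7% of all genes, of which 9.79% were higher in A and 13.9% higher in B). That share is not far from the one over all genes and is no result about this list. *ZEB1*, a zinc finger repressor of lineage and adhesion genes, was at 37.5, 42.5 and 44 CPM in A and 1.82, 1.71 and 2.35 CPM in B (21.1-fold higher in A). *MYCN*, a MYC family factor, was at 12, 10.2 and 10.7 CPM in A and 0.131, 0.105 and 0.0694 CPM in B (108-fold higher in A). *ZNF521*, a regulator of immature progenitors, was at 5.38, 6.31 and 6.12 CPM in A and had 0 reads in B, at least 661-fold apart. As the call requires, these 3 factors were lower in every B library than in any A library. *GATA2*, which maintains stem cells and drives mast cell and basophil genes, was at 33.9, 29.2 and 31.2 CPM in A and 90.9, 91.9 and 66.7 CPM in B (2.65-fold higher in B). *NFE2*, a factor of erythroid and megakaryocytic genes, was at 2.03, 1.83 and 1.67 CPM in A and 20.8, 18.2 and 14.9 CPM in B (9.75-fold higher in B). *RUNX1* and *MYB* were not called. *RUNX1*, whose reads include the 5′ part of the fusion, was at 395, 384 and 368 CPM in A and 248, 266 and 239.8 CPM in B, and *MYB* at 493, 505 and 497 CPM in A and 567, 549.9 and 525 CPM in B.

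Only 6 of 51 listed *HOX* and partner genes passed the filter, 5 higher in A and 1 higher in B. Every passing member was called, against 23.7% of all genes. Some members passed only through the reads of A, such as *HOXD13* with 1593 reads in A and 0 in B. The share called is thus partly set by the filter and is no result about this list. *HOXD13*, the most 5′ gene of its cluster, was at 6.22, 6.81 and 8.60 CPM in A and 0 in B, at least 803-fold apart. Below the filter, *HOXA9* had 79 reads in A and 0 in B. *MEIS2*, a HOX cofactor, was at 23.3, 25 and 22.6 CPM in A and 56.1, 62.5 and 62.3 CPM in B (2.55-fold higher in B). Without Kasumi-1 LNP/siMM-mod replicate 1 in A, 5 members passed the filter, and 3 in place of 5 were called higher in A.

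Several proteases of neutrophil granules were higher in A. Of 41 neutrophil granule genes 16 passed, 7 of them higher in A and 4 higher in B, with a median log2 difference of 0.75 (68.8% called, against 23.7% of all genes). *PRTN3* (proteinase 3) was at 1589, 1067 and 1269 CPM in A and 29.6, 24.2 and 18.4 CPM in B (54.4-fold higher in A, log2 5.77 ± 0.26 SE). *ELANE* (neutrophil elastase) was at 836, 514 and 606 CPM in A and 122, 91.5 and 56.2 CPM in B (7.25-fold). As for every called gene, no A library overlapped a B library for either protease. *CTSG* (cathepsin G) was at 122, 108 and 125 CPM in A and 9.18, 6.86 and 5.54 CPM in B (16.5-fold). *AZU1* (azurocidin, the inactive relative) was at 388, 269.7 and 297 CPM in A and 55.8, 44.2 and 38.1 CPM in B (6.91-fold). These 4 genes were named for the largest differences among the listed genes called higher in A. Their shared order follows from that choice and is no result. *CTSG* lies on chromosome 14 and the others on chromosome 19. *PRSS57*, another serine protease of these granules, overlapped between the groups and was not called, at 290.1, 189 and 232 CPM in A and 210.04, 173 and 106 CPM in B (1.46-fold). *MPO*, which makes hypochlorous acid in the same granules, was chosen after its values were seen and was at 11100.1 ± 1316 CPM in A and 4669 ± 1015 CPM in B (mean ± SD, n = 3 each, 2.38-fold). *CST7*, an inhibitor of cathepsins, ran the other way at 0.704, 0.604 and 0.541 CPM in A and 45.2, 37.1 and 31.1 CPM in B (61.3-fold higher in B).

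Eosinophil, basophil and mast cell genes were mostly higher in B. Of 29 listed, 16 passed the filter, 12 were called higher in B and 3 in A (93.8% called, against 23.7% of all genes), with a median log2 difference of −2.44. Some members passed only through the reads of B, such as *IL5RA* with 13846 reads there. The share called is thus partly set by the filter. *IL5RA*, the ligand-binding chain of the interleukin-5 receptor, was at 44.1, 44.3 and 35 CPM in B and had 3 reads in all of A. *PTGDR2*, the prostaglandin D2 receptor of eosinophils and basophils, was at 0.587, 0.508 and 0.625 CPM in A and 13, 9.92 and 9.32 CPM in B (18.7-fold higher in B). Granule genes of the lineage did not all go with the receptors. *RNASE2*, an eosinophil granule ribonuclease, was at 29, 26.3 and 29.9 CPM in A and 17.3, 14.3 and 10.5 CPM in B (2.03-fold higher in A). *PRG2*, the major basic protein, was at 0.209, 0.261 and 0.250 CPM in A and 9.35, 7.27 and 5.97 CPM in B (31.4-fold higher in B). In the libraries outside the rule *PRG2* was far higher on both sides and in the reverse order, at 191, 164 and 176 CPM above the *CD34* limit and 74.9, 82.3 and 85.8 CPM below it.

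Monocyte and macrophage genes fell on both sides, 7 of 24 passing genes higher in A and 12 higher in B (79.2% called, against 23.7% of all genes). *CLEC5A*, an activating lectin receptor, was at 99, 113 and 114 CPM in A and 0.272, 0.336 and 0.397 CPM in B (325-fold higher in A). *CSF1R*, the receptor of macrophage colony-stimulating factor, was at 9.78, 10.2 and 7.74 CPM in A and 1.43, 1.34 and 1.38 CPM in B (6.68-fold higher in A). *TYROBP*, the DAP12 adaptor through which CLEC5A signals, was at 0.0652, 0.0686 and 0.111 CPM in A and 20.4, 11.6 and 13.3 CPM in B (185-fold higher in B). A receptor and its adaptor therefore peaked in opposite groups. *MRC1*, the macrophage mannose receptor, was at 0, 0.0549 and 0.0555 CPM in A and 7.72, 6.30 and 9.82 CPM in B (216-fold higher in B).

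Erythroid and megakaryocyte genes were sparsely expressed, and 13 of 48 passed, 2 higher in A and 8 higher in B (76.9% called, against 23.7% of all genes). *ITGA2B*, the platelet integrin alpha IIb chain, was at 1.79, 1.41 and 1.48 CPM in A and 55.2, 51.9 and 51.3 CPM in B (33.8-fold higher in B). *CA2*, carbonic anhydrase 2, was at 62.3, 59.1 and 73.5 CPM in A and 0, 0.0748 and 0.0793 CPM in B (1265-fold higher in A). The count higher in B was 3 without Kasumi-1 LNP/siRE-mod replicate 2, when 8 genes passed, and 5 without SKNO-1 LNP/siRE-mod replicate 2. Defining globin genes were at the floor of detection, with *HBB* at 32 reads in A and 4 in B. Among lymphoid genes 11 of 43 passed, 3 higher in A and 6 higher in B (81.8% called). *PAX5*, the B-cell factor that t(8;21) cells often express, was at 10.8, 9.47 and 8.20 CPM in A and 2.33, 2.27 and 1.62 CPM in B (4.58-fold higher in A). *IGLL1*, a surrogate light chain gene, was at 2.45, 2.10 and 2.08 CPM in A and 191, 139 and 90.6 CPM in B (63.5-fold higher in B). *CD3E*, a chain of the T-cell receptor complex, was near 0, with 7 reads in A and 0 in B.

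Among receptors for cytokines, those called were mostly higher in B. Of 52 listed, 33 passed, and 3 were called higher in A and 11 higher in B (42.4% called, against 23.7% of all genes), with a median log2 difference of −0.36. *CSF2RB*, the beta chain shared by the receptors for GM-CSF, interleukin-3 and interleukin-5, was at 3.74, 3.47 and 3.33 CPM in A and 61.2, 62.9 and 59.9 CPM in B (17.5-fold higher in B, log2 −4.12 ± 0.053 SE). It was at 4.59, 3.61 and 3.97 CPM in the other libraries above the *CD34* limit and at 260.1, 273 and 279.6 CPM in those below it. Its 2 highest groups were thus the CD34-low ones, and libraries with either line label were among both. *IL1RAP*, the accessory chain of the interleukin-1 receptor, was at 18.3, 19.6 and 21.2 CPM in A and 432, 423 and 490.3 CPM in B (22.8-fold higher in B). As the call requires, both chains were higher in every B library than in any A library. *IGF1R*, the insulin-like growth factor 1 receptor, was at 124, 128 and 111 CPM in A and 1.53, 2.32 and 1.48 CPM in B (68-fold higher in A). *IL17RA*, a chain of interleukin-17 receptors, was 2.23-fold higher in A, at 34.6, 32.5 and 30.7 CPM against 15, 16 and 12.7 CPM. *CSF2RA*, the ligand-binding chain for GM-CSF, is not autosomal and is not described here.

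Of 39 JAK, STAT and feedback genes 38 passed, 1 higher in A and 11 higher in B (31.6% called, against 23.7% of all genes), with a median of −0.29. The share called is near that of all genes and is no result about this list. *STAT4*, a transcription factor activated by interleukin-12, was at 0.0782, 0 and 0 CPM in A, all 6 reads in 1 library, and 40.4, 35.4 and 42.8 CPM in B. *PIM1*, a survival kinase induced by STAT5, was at 11.9, 10.6 and 11.2 CPM in A and 305, 262 and 308 CPM in B (26-fold higher in B). *OSM*, the cytokine oncostatin M, was at 1.23, 0.590 and 0.874 CPM in A and 11.3, 9.79 and 10.7 CPM in B (11.8-fold higher in B). *STAT5A* itself, which these receptors activate, was not called, at 179.9, 152 and 157 CPM in A and 205, 203 and 177 CPM in B. *CCND1*, another D-type cyclin, was at 6.19, 5.12 and 5.08 CPM in A and 0.161, 0.165 and 0.198 CPM in B (31.3-fold higher in A).

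Adhesion genes showed exchanges of individual members rather than 1 direction, with 9 of 44 passing genes higher in A and 12 higher in B (47.7% called, against 23.7% of all genes). *ESAM*, an adhesion molecule of endothelial and stem cells, was at 19.9, 16.8 and 16.3 CPM in A and 0.392, 0.396 and 0.327 CPM in B (47.5-fold higher in A). *ITGA2*, the collagen-binding integrin alpha 2 chain, was at 7.42, 7.78 and 8.10 CPM in A and 0.141, 0.292 and 0.496 CPM in B (25.1-fold higher in A). *CD82*, a tetraspanin, was at 6.69, 5.33 and 6.33 CPM in A and 43, 45.5 and 29.6 CPM in B (6.44-fold higher in B). *CD44*, the hyaluronan receptor, was at 645, 679 and 709 CPM in A and 483, 406 and 473 CPM in B, and *ITGA4*, which binds VCAM1, at 334, 345 and 349 CPM in A and 519.95, 575 and 554 CPM in B, both under 2-fold.

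Genes with parental imprinting or with large differences between people differed in an all-or-none way in several cases. Of 41 imprinted genes 19 passed, 2 higher in A and 6 higher in B (42.1% called, against 23.7% of all genes). *SNRPN*, a paternally expressed gene of chromosome 15, was at 43.1, 34.5 and 28.8 CPM in B and 0 in A, at least 2621-fold apart. *GRB10*, an adaptor that damps insulin signalling and is imprinted in some tissues, was at 66.7, 74.5 and 65.5 CPM in B and 0 in A, at least 5088-fold apart. *KCNQ1OT1*, an antisense RNA inside *KCNQ1* that is read from the paternal copy, was at 46.9, 59.2 and 46 CPM in A and 1.18, 2.56 and 3.21 CPM in B (21.9-fold higher in A). The strand setting of the read counting was not given in the sources used here, so its reads and those of *KCNQ1* cannot be told apart. *GNAS* was not called, at 890.5, 816 and 867 CPM in A and 816, 828 and 677 CPM in B.

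Among genes that are deleted or silent in a share of people, 7 of 16 autosomal ones passed, 2 higher in A and 2 higher in B (57.1% called, against 23.7% of all genes). *GSTM1*, a glutathione transferase that many people lack, was at 32, 29.6 and 32.3 CPM in A and 0.0101, 0.0299 and 0.0198 CPM in B (1571-fold higher in A), and it shares sequence with neighbouring *GSTM* genes. *ERAP2*, a peptidase that trims MHC ligands, was at 24.8, 28.1 and 27.5 CPM in A and 100.2, 99.8 and 108 CPM in B (3.82-fold higher in B). The 3 libraries of each group were alike in these genes although their line labels differed. *GSTM1* was at 30.2, 21.5 and 22.9 CPM in the other libraries above the *CD34* limit and at 0.0333, 0 and 0.0252 CPM in those below it.

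Proliferation genes had the lowest share of called genes among the lists, with 3 of 45 passing genes higher in A and 0 higher in B (6.67% called, against 23.7% of all genes). Their median log2 difference was nevertheless 0.41, against 0.00094 over all genes. With all 12 in vitro libraries split at the *CD34* limit the median was −0.021. *RRM1*, the large subunit of ribonucleotide reductase, was at 193, 198 and 201 CPM in A and 78.9, 84.3 and 74.2 CPM in B (2.49-fold higher in A). *MKI67*, the proliferation antigen, was at 536, 609.7 and 537 CPM in A and 325, 402 and 290.4 CPM in B. It did not overlap but was under 2-fold and so was not called. Among cell cycle inhibitors and death regulators, 3 of 37 were higher in A and 9 higher in B. The 32.4% called is near the 23.7% of all genes and is no result about this list. *TP73*, a p53 family member, was at 8.98, 8.21 and 6.81 CPM in B and 0 in A, at least 591-fold apart. *CDKN1B*, which encodes the inhibitor p27, was at 96.9, 92.4 and 100.01 CPM in A and 41.7, 35.1 and 38.9 CPM in B (2.50-fold higher in A). Of 20 housekeeping genes 4 were called (20%), which is near the 23.7% of all genes and is no result about this list. *TBP*, the TATA-binding protein, was 2.54-fold higher in A (24.6, 28.3 and 30.1 against 11.3, 11.5 and 10.02 CPM), and *ALDOA*, a glycolytic aldolase, 3.19-fold higher in B (18.8, 11.9 and 13.5 against 56.9, 33.9 and 49.9 CPM).

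Called genes of the same direction also stood next to each other. Among 10301 genes with at least 5 CPM in a group, there were 22 runs of 5 or more neighbours with the same call, 10 higher in A and 12 higher in B, holding 144 genes. Over all 12937 genes 23.7% were called, and the number of runs that this share alone would give was not computed. Several runs held genes of the same family, such as *GOLGA8* genes on chromosome 15 and *ZNF* genes on chromosome 19. Others held a gene with its antisense RNA, such as *MBNL1* and *MBNL1-AS1*, so neighbours may share reads. The bounds of the 2 longest runs, found from these values, were widened to whole Mb. On chromosome 7 between 141 and 150 Mb, 25 of 35 genes were higher in A and 0 higher in B, with a median log2 difference of 1.45. In the rest of chromosome 7, 77 of 662 genes were higher in A and 79 in B. The segment held *CLEC5A*, which was described above. On chromosome 9 between 20 and 28 Mb, all 14 genes that passed the filter were higher in B, with a median of −1.80, against 100 of 508 in the rest of that chromosome. *CDKN2A*, the tumour suppressor locus inside it, was at 2.53, 1.91 and 2.37 CPM in A and 17.7, 14.5 and 7.94 CPM in B (5.89-fold higher in B). Like *CDKN2A* chosen after its values were seen, *MLLT3*, a stem cell regulator and fusion partner of KMT2A, was at 17.8, 22.3 and 21.7 CPM in A and 77.7, 71.7 and 92.1 CPM in B (3.91-fold higher in B). Over genes with at least 5 CPM in both groups, the chromosome medians ranged from −0.25 on chromosome 15 to 0.55 on chromosome 10, against 0.048 over all autosomes. Copy number was not measured in these libraries.

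The 6 libraries outside the rule carried much of the same division at lower *RUNX1T1* levels. Of the 1266 genes called higher in A, 1183 (93.4%) were higher, without overlap, in the 3 other libraries above the *CD34* limit than in the 3 below it, and of the 1794 higher in B, 1456 (81.2%) were lower there without overlap. The same held for 53.9% of all 12937 genes, taking each in its own direction. The sign was opposite for 31 and 148 genes. Of those, *IL6R*, a receptor chain chosen after its values were seen, was at 3.42, 3.64 and 3.32 CPM in A and 17.6, 18 and 15.4 CPM in B, but at 49.8, 38.9 and 37.4 CPM above the limit and 6.78, 7.27 and 8.61 CPM below it elsewhere. A difference could also be absent there without a reversal. *FOS*, an immediate early AP-1 gene, was at 4.17, 3.80 and 5.44 CPM in A and 145, 132 and 23.2 CPM in B. In the other libraries *FOS* was at 5.01, 3.43 and 6.70 CPM above the limit and 6.71, 5.53 and 3.42 CPM below it, which overlapped. Its lowest B value was that of SKNO-1 LNP/siRE-mod replicate 2.

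**Figure D2:**
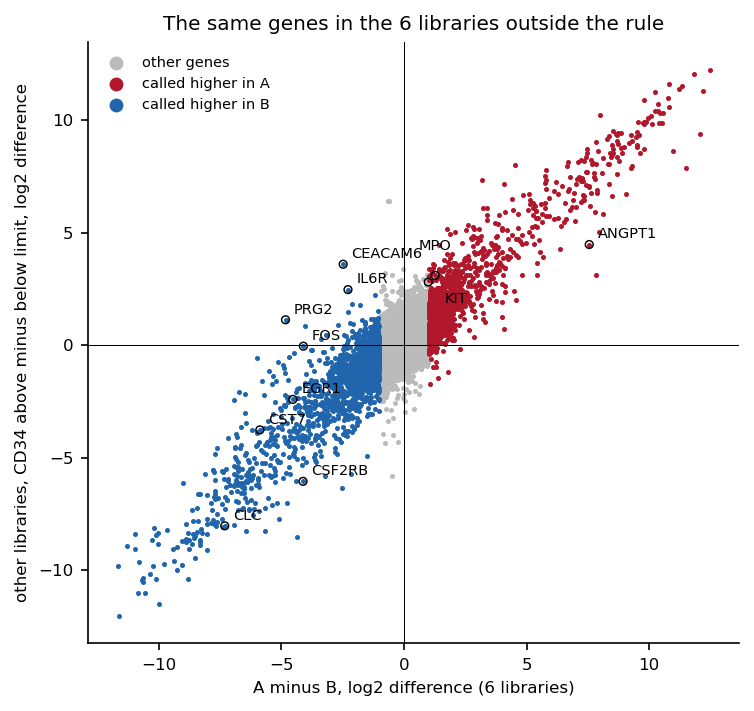
Log2 difference between A and B (x axis) against the log2 difference between the 3 other libraries above and the 3 below the *CD34* limit (y axis), 1 point per autosomal gene. Of the called genes, 93.4% of those higher in A and 81.2% of those higher in B keep their direction without overlap.

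The labels themselves were compared over the same 12 libraries with edgeR's quasi-likelihood test and Benjamini-Hochberg adjustment over 15300 genes, each label adjusted for the other. For the cell line label, Kasumi-1 against SKNO-1, 0 genes (0%) passed an adjusted p of 0.05, the lowest adjusted p was 0.0638, and 1984 genes had an unadjusted p below 0.05. For the siRNA label, LNP/siRE-mod against LNP/siMM-mod, 0 genes (0%) passed, the lowest adjusted p was 0.0728, and 4768 had an unadjusted p below 0.05. DESeq2's Wald test called 244 genes for the line label and 3292 for the siRNA label. Single libraries decided the siRNA count, which was 4202 without Kasumi-1 LNP/siMM-mod replicate 3, 3958 without SKNO-1 LNP/siRE-mod replicate 1 and 835 without SKNO-1 LNP/siMM-mod replicate 3. The line count was 72 without SKNO-1 LNP/siRE-mod replicate 3. These p-values measure only the spread between samples whose independence the labels do not state, and counts that miss the threshold do not show that the labels had no effect.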

How the data were processed

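RNA-seq read counts per gene were deposited for each library together with the authors' CPM and FPKM values, which were not used here. The submitters' processing notes name Trim Galore 0.6.5, STAR 2.7.10a, Subread 1.6.5 and HTSeq, and the builds GRCh37 and GRCh38. The strand setting of counting is not given in the sources used here. CPM values printed in the description of the rule were recomputed from the deposited counts. Libraries from mice were not analysed here. Autosomal genes with at least 600 reads over the 6 libraries were kept, scaled by TMM and expressed as log2 CPM with a prior count of 2 (edgeR 4.0.16, R 4.3.3). A call required no overlap of 3 against 3 libraries and a 2-fold difference. Labels were tested with edgeR's quasi-likelihood test, cell line and siRNA in 1 model, on 12 libraries, with DESeq2 1.42.0 as an alternative. Both procedures were run on simulated data in which libraries differed in a set of genes along 1 grouping, with no groups crossing the labels. That setting is simpler than these libraries, so it does not show how the label test behaves here. The members and gene lists were chosen with earlier results of these data known. Genes that could be named were *CD34*, *RUNX1T1*, *CSF2RB*, *IL5RA*, the fusion targets of the study, the 15 with the largest difference in each direction and, per list, up to 4 called genes in each direction and up to 4 uncalled ones with the highest CPM, and not all of these are described. Members below the filter and all others were named after their values were seen. Promoters came from RefSeq (GRCh38.p14). Some members of the gene lists are not reported here.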

Additional observations from a re-analysis of the deposited data

How the results depend on the processing

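The number of genes called higher in A and in B moved with the read filter and the fold limit. It was 3590 and 4882 with genes of at least 1 read (2889 and 3197 of them in the same direction, without overlap, in the libraries outside the rule), 2659 and 3431 with edgeR's filterByExpr (2295 and 2495), and 442 and 785 at 4-fold (439 and 731). Leaving out 1 library in turn gave 1167 to 1271 higher in A and 1548 to 1798 higher in B, of which 1083 to 1185 and 1306 to 1447 had the same direction outside the rule. Scaling by library totals alone shifted the median log2 difference of all genes to −0.15 and the share of called genes that were higher in A from 41.4% to 32.8%, and 133 of the 138 called named genes were called there. Splitting all 12 libraries at the CD34 limit called 108 of the 138 and gave, higher on the CD34-high and CD34-low side, 6 and 3 genes typical of t(8;21) leukaemia, 1 and 0 proliferation genes, 2 and 9 immediate early genes, 5 and 16 cytokine receptors and 0 and 4 MHC class II genes. No called gene named by the rule changed sign under any setting run. For the labels, DESeq2's Wald test called 244 genes by cell line and 3292 by siRNA. Leaving out 1 library in turn gave 0 to 72 by cell line and 0 to 4202 by siRNA. Replicate numbers were shared across label groups, but same-numbered samples did not in general deviate together (r of −0.845 to 0.783 over 18 pairs, 7 of them above 0.1), although the 3 pairs between Kasumi-1 and SKNO-1 LNP/siRE-mod were all above 0.1 (0.121, 0.477 and 0.597). A fit with the replicate number as a block called 0 genes by cell line and 2074 by siRNA. The other planned settings (DESeq2 size factors, TMM over 12 libraries, other prior counts, the 12-library split) left the counts over all genes within 1.5-fold. The cause of the shifts was not tested, except that the read filters change the number of genes examined. Depth sets the folds given as lower bounds and the values of genes with few reads, and 3 libraries a group limit the precision of every difference.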

Other observations

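Called genes of MHC class II and of the interferon response were mostly higher in the CD34-silent libraries (B). Of 18 MHC class II genes 11 passed the read filter, 0 higher in A and 7 higher in B (a median log2 difference, A minus B, of −2.13), against 13.9% of all genes higher in B. With all 12 in vitro libraries split at the *CD34* limit, 4 of 11 were higher in the CD34-low libraries and the median was −0.64. *CD74*, the invariant chain, was at 151, 109 and 123 CPM in A and 690.3, 509 and 498 CPM in B (4.44-fold higher in B). *RFX5*, a DNA-binding part of the factor complex at MHC class II promoters, overlapped between the groups at 69.5, 63 and 64.8 CPM in A and 64.4, 68.5 and 59.9 CPM in B. Of 22 class I presentation genes 20 passed, 1 higher in A and 5 higher in B. The 30% called is near the 23.7% of all genes and is no result about this list. Of 46 interferon-stimulated genes 29 passed, 17 higher in B and 1, *IFITM3*, which restricts virus entry, in A (62.1% called, against 23.7% of all genes). The members below the filter went both ways. *IFI27* had 63 reads in A and 6 in B, *ISG15* 229 and 235, and *MX1* 47 and 281. *IFITM3* was at 68.2, 56.4 and 65.3 CPM in A and 0.855, 0.344 and 1.23 CPM in B (78.2-fold higher in A). *TRIM22*, an antiviral E3 ligase, was at 0.0913, 0.124 and 0.0971 CPM in A and 14.3, 13.4 and 17.3 CPM in B (144-fold higher in B).

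Of 20 passing genes for chemokines, their receptors and the TNF family, 3 were higher in A and 9 in B (60% called, against 23.7% of all genes). *CXCR4*, which retains progenitors in the bone marrow, was at 1.08, 1.40 and 1.37 CPM in A and 17.7, 11.6 and 12.5 CPM in B (10.8-fold higher in B). *CCL5* was at 8.30, 9.00 and 10.6 CPM in A and 2.69, 1.56 and 1.66 CPM in B (4.73-fold higher in A), and without Kasumi-1 LNP/siRE-mod replicate 2 the list had 1 gene higher in A. Among 32 passing immediate early and stress genes 6 were higher in A and 8 in B (43.8% called). *EGR1* was at 8.67, 7.18 and 8.44 CPM in A and 269.8, 204 and 119 CPM in B (24.4-fold higher in B), and its lowest B value, like that of *FOS*, was in SKNO-1 LNP/siRE-mod replicate 2. Of 29 genes of other tissues 5 passed, *EPCAM* and *TTN* higher in A and *ACTA2*, *KDR* and *MUC1* higher in B, the last 3 named after their values were seen. The defining keratin, albumin and surfactant genes of that list were near 0, with *KRT5* at 0 reads in both groups, *ALB* at 12 reads in A and 44 in B, and *SFTPC* at 2 in each.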
